A study of Mus musculus with 12 samples.

Results

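Cadherins and non-clustered protocadherins are calcium-dependent adhesion proteins of the cell surface, and their genes were followed here across 3 genotypes of mouse cortex. Members were taken by name: every gene called Cdh or Pcdh followed only by a number. That gave 34 of 23951 genes in each table, 23 cadherins and 11 protocadherins. Of these, 29 reached at least 0.3 RPKM, the read count scaled to transcript length and library size, in some genotype, and their levels are described. Just inside that limit stood Cdh23, whose highest value was 0.454 RPKM, and just outside it Cdh3 with 0.299875.

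RNA came from cortex of C57BL/6 mice that were wild type at Mir137 (WT), heterozygous and labelled miR-137/+ (Het), or labelled miR-137 KO (KO). Each genotype had 4 libraries, 12 in all, and the series asks what miR-137, a brain-enriched microRNA, does in neurodevelopment. Neither the age of the mice nor the extent of the knockout, in the whole body or in some cells, is stated in the sources used here. All 12 cortical projection neuron markers examined reached 0.3 RPKM, among them the vesicular glutamate transporter Slc17a7 at 575 RPKM in WT, 484 in Het and 393 in KO. Slc17a7 fell in KO (q 0.000987 in the authors' deposited table). Of these 12 markers 3 rose and 1 fell in Het, and 2 rose and 1 fell in KO, in the authors' deposited tables. Their summed level was 1723 RPKM in WT, 1498 in Het and 1349 in KO. Most of these sums is Slc17a7 and Camk2a, the latter listed at 847, 691 and 650 RPKM in the same order with no call. In each mutant genotype 7 of the 12 markers had a higher value than in WT and 5 a lower one, so the sums do not describe the list as a whole.

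The authors pooled the libraries of a genotype into 1 RPKM value, so no SD can be given and library depth is unknown. Below, rose and fell are used of genes whose q, the p-value adjusted over all genes tested, was below 0.05 in the authors' deposited table. The labels do not tie each library to its own animal, and the q-values then reflect only how much these libraries vary, which may be technical. Library titles carry the same nested numbering in every genotype, and its meaning is not given. The libraries of a genotype may therefore not be independent of each other. In bulk tissue, fewer cells of a type and less RNA per cell cannot be told apart. Every log2 fold is the difference of 2 values of log2(RPKM + 1) and is smaller than the true ratio for genes of low level.

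Classical cadherins bind cadherins on the neighbouring cell through their outermost repeat and hold on to the actin skeleton through catenins. Type I cadherins are spread broadly over tissues, while the type II cadherins of the brain are each found in certain areas, layers and nuclei, and neurons with matching sets tend to adhere. Non-clustered protocadherins, mostly of the delta group, adhere more weakly and signal to the actin skeleton. They too mark regions, circuits and cell types during development.

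Because miR-137 is what these mice lose, matches to its seed were searched in the longest 3′ untranslated region (3′ UTR) annotated for each gene. The mature strand from the RefSeq microRNA table lies on GRCm38.p6 at chr3:118433901-118433923, plus strand. Its seed, bases 2 to 8, is in capitals.
mmu-miR-137-3p: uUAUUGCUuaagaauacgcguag
The transcript strand was searched for AGCAATA, which pairs with the whole seed (a 7mer-m8 match), for AGCAATAA (an 8mer, which holds both other forms) and for GCAATAA (a 7mer-A1). A match was counted only in its longest form. Among the 29 members, 5 held a 7mer-m8 match, or 17.2%, and 0 held an 8mer. Over 13905 genes of at least 0.3 RPKM with an annotated 3′ UTR, 10.6% held a 7mer-m8 or 8mer and 4.53% an 8mer. Members have long 3′ UTRs, with a median of 1914 nt against 1181 nt. Among 6847 genes of 882 to 3665 nt, the middle 50% of member lengths, the share with a 7mer-m8 or 8mer was 12.3%. A match is a description of letters, not evidence of a working site.

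The 6 matches lie in 5 type II cadherins, and each is shown in 30 bases of its 3′ UTR, on the transcript strand, with the match in capitals.
Cdh6: tgacaatatttaatgcaaagAGCAATAccc
Cdh7: aaatatgtattaggtagctgAGCAATAtta
Cdh11: cggaccaaaggtccagacaaAGCAATActt
Cdh12, first match: acagtgtctctacgtcaagaAGCAATAgtg
Cdh12, second match: tgaccttcattcaagcattaAGCAATAtaa
Cdh20: cgaggcgcggccaccccaggAGCAATAttg
On GRCm38 these stretches lie at chr15:13029999-13030028 on the minus strand (Cdh6), chr1:109996595-109996624 on the plus strand (Cdh7) and chr8:102632709-102632738 on the minus strand (Cdh11). Those of Cdh12 are at chr15:21586949-21586978 and chr15:21589203-21589232, and that of Cdh20 at chr1:104994448-104994477, all on the plus strand. The match of Cdh20 starts 83 nt into a 3′ UTR of 1096 nt, and the first match of Cdh12 starts 488 nt into one of 3052 nt. None of these 5 genes rose or fell in any of the 3 comparisons of the authors' deposited tables, as their values below show. With 9.0%, 14.4% and 1.87% of all genes called in Het against WT, KO against WT and KO against Het, nothing can be read from 0 calls among 5 genes. Of the 8 members that rose or fell, 0 held a 7mer-m8 or 8mer, and Cdh19 held a 7mer-A1. With 10.6% of all genes and 12.3% of genes of like 3′ UTR length holding a 7mer-m8 or 8mer, nothing can be read from 0 of 8 either. Further 7mer-A1 matches stood in Pcdh9 and Pcdh10.

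Levels spanned a wide range. In WT, 13 of the 29 members stood at 10 RPKM or more and 5 below 1. Cdh2, the N-cadherin of neural junctions and synapses, was the most abundant in WT, followed by Cdh8, Cdh13, Pcdh1, Pcdh9 and Cdh11. With 1 pooled value per genotype, no spread is at hand to say which neighbours in this order differ. Below the limit lay Cdh1 (E-cadherin of epithelia, 0.111 RPKM in WT), Cdh3 (P-cadherin), Cdh16 and Cdh17 (kidney and gut cadherins) and Cdh26. Cdh3 was listed at 0.299875 RPKM in WT, 0.0502 in Het and 0.00608 in KO, and Cdh26 at 0.255, 0.0933 and 0.0569, and the authors did not test either.

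**Figure D1:**
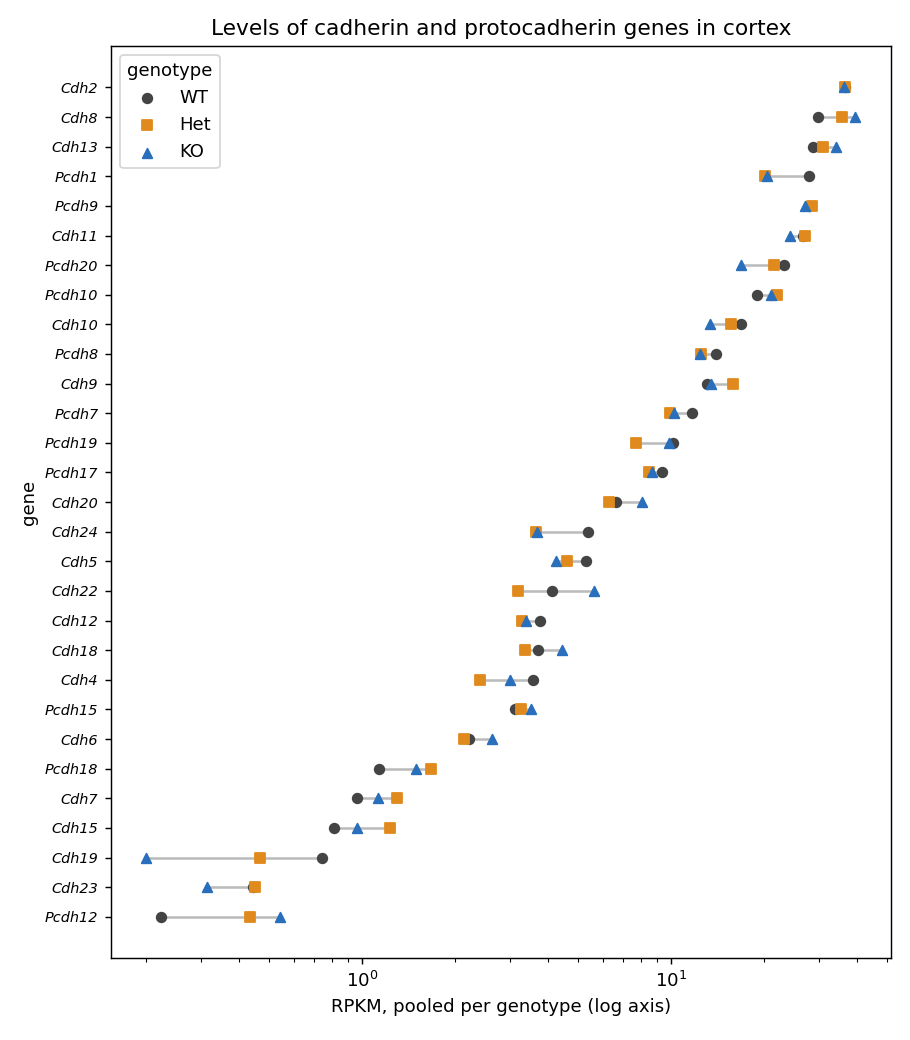
Pooled level of each of the 29 genes in WT (circles), Het (squares) and KO (triangles) in RPKM on a log axis, ordered by the WT level, with grey lines joining the lowest and highest value. Cdh2 stands highest in WT at 36.3 RPKM with its symbols on top of each other, while those of Cdh19, from 0.741 to 0.200 RPKM, lie far apart.

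In Het cortex 4 members fell and 0 rose among the 27 tested in the authors' deposited table. The share that fell was 14.8%, where 5.06% of 14159 genes tested fell and 3.95% rose. At an unadjusted p below 0.05 the same deposited test held 6 members lower and 3 higher. Over all 14159 genes tested it held 1450 lower and 1310 higher. The members that fell are Cdh4, Cdh24, Pcdh1 and Pcdh19, a type I cadherin, a type II cadherin and a protocadherin of each delta group. In KO cortex 4 members fell, again 14.8% of 27, where 7.68% of 14059 genes tested fell. Another 2 rose, 7.41% of those tested, close to the 6.72% of all genes. Those that fell in the authors' deposited table are Cdh19, Cdh24, Pcdh1 and Pcdh20, and those that rose are Cdh8 and Cdh22. For KO the deposited test held 6 members lower and 3 higher at an unadjusted p below 0.05, against 1851 and 1870 of 14059 genes. Both comparisons use the same WT libraries, so they are not independent of each other. The median log2 fold over the 29 members was -0.07 in Het and -0.04 in KO, and over all genes of the same minimum level it was 0.00 in both.

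Members have long transcripts, and the median of their longest annotated transcript was 5168 nt, against 3288 nt for all genes of at least 0.3 RPKM. Among genes tested in Het with transcripts of 3995 to 6521 nt, the middle 50% of member lengths, 6.38% fell and 3.87% rose. In KO the shares over that length range were 9.0% and 5.14%. Of the members tested, 14.8% fell in each comparison, while 0% rose in Het and 7.41% in KO. The median log2 fold of genes in that range was -0.02 in Het and -0.03 in KO, and that of the members was -0.07 and -0.04. The part of transcript length in the members' counts was not tested further.

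**Figure D2:**
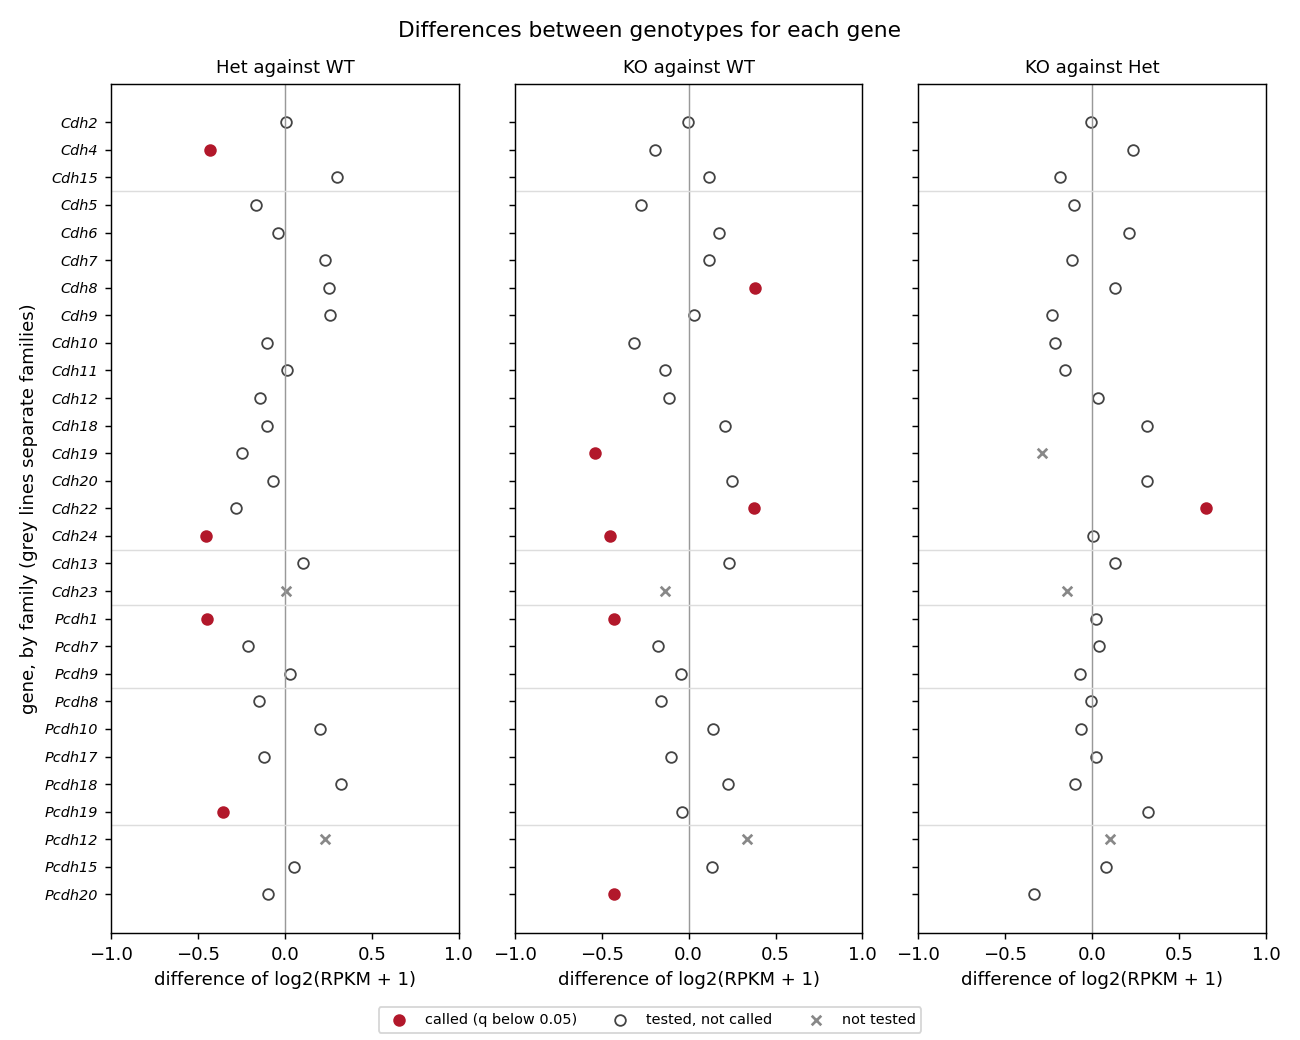
Difference of log2(RPKM + 1) for each of the 29 genes in Het against WT, KO against WT and KO against Het, with families separated by grey lines, filled circles where q was below 0.05, open circles where it was not and crosses where the authors made no test. Most genes lie close to 0, and the filled circles left of it number 4 in each comparison with WT.

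Type I cadherins were represented by 3 members above the limit. Cdh2 was listed at 36.3 RPKM in WT, 36.4 in Het and 36.3 in KO. Its log2 folds were 0.00 in both comparisons with WT (q 0.993 and 0.994 in the authors' deposited tables), so the main neuronal cadherin stood at nearly the same level in all 3 genotypes. Cdh4, the R-cadherin first known from retina, was listed at 3.57 RPKM in WT, 2.40 in Het and 2.997 in KO. It fell 1.49-fold in Het (log2 fold -0.43, q 0.00343 in the authors' deposited table). In KO it lay between WT and Het, with a log2 fold of -0.19 (q 0.272 in the authors' deposited table). Whether the KO and Het levels of Cdh4 differ was tested in the third deposited table, where q was 0.505 in the authors' deposited table. Cdh15, the M-cadherin of muscle, was low at 0.813 RPKM in WT, 1.23 in Het and 0.963 in KO, with no call.

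Type II cadherins make up 13 of the 27 members tested in KO, and 2 of them rose and 2 fell in the authors' deposited table. Over all genes tested in KO, 14.4% were called in either direction. Cdh8, which marks areas of the developing forebrain and sits at synapses, was listed at 29.9 RPKM in WT, 35.7 in Het and 39.3 in KO. It rose 1.32-fold in KO (log2 fold 0.38, q 0.0117 in the authors' deposited table), and in the order of levels it passed Cdh2 there. Het lay between the other genotypes, with a log2 fold of 0.25 (q 0.161 in the authors' deposited table).

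Cdh22, a type II cadherin of pituitary and brain, was listed at 4.10 RPKM in WT, 3.19 in Het and 5.62 in KO. It rose 1.37-fold in KO (log2 fold 0.37, q 0.0367 in the authors' deposited table), a call that ended when the p-values of the 3 tables were adjusted together (0.0561). Its Het value lay below WT (log2 fold -0.28, q 0.247 in the authors' deposited table). KO against Het was the comparison in which it differed most, 1.75-fold higher in KO with a log2 fold of 0.66 (q 0.00517, the smallest value in the authors' deposited table). There it was 1 of 26 members tested to change, or 3.85%, where 0.917% of 14062 genes tested rose in the authors' deposited table and 1.87% changed either way. In KO against Het 0 members fell, where 0.953% of all genes tested did. At an unadjusted p below 0.05 the same deposited test held 5 members higher and 1 lower, against 686 and 694 of 14062 genes.

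Cdh24 was listed at 5.39 RPKM in WT, 3.66 in Het and 3.68 in KO. The Het value was 1.47-fold below WT (log2 fold -0.45, q 0.0344 in the authors' deposited table). The KO value was 1.46-fold below WT (log2 fold -0.45, q 0.0207 in the authors' deposited table). Both mutant genotypes thus stood at nearly one level, with a log2 fold of 0.00 between them (q 0.998 in the authors' deposited table). Cdh19, known from the neural crest and Schwann cell lineage, was low at 0.741 RPKM in WT, 0.467 in Het and 0.200 in KO. It fell 3.69-fold in KO (log2 fold -0.54, q 0.00323 in the authors' deposited table), the largest ratio among called members. The Het value was 1.58-fold below WT (q 0.335 in the authors' deposited table), and the authors made no test of Cdh19 between KO and Het.

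**Figure D3:**
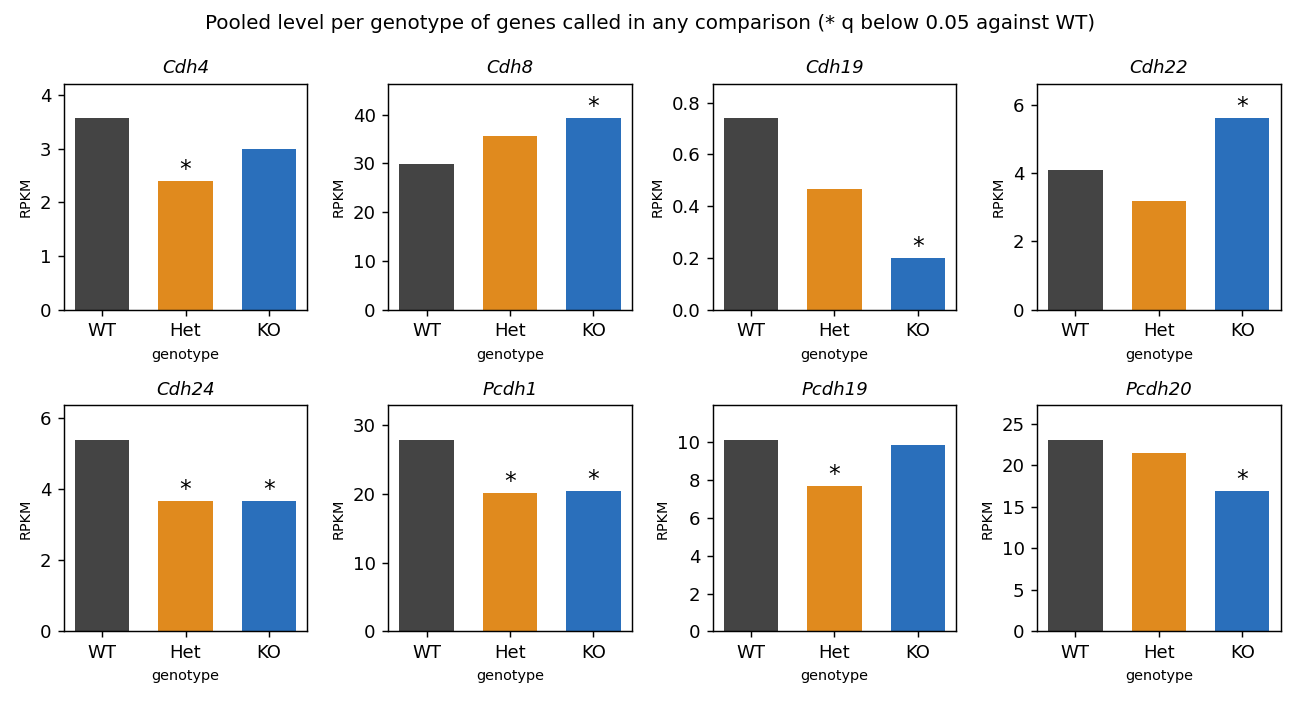
RPKM per genotype for the 8 genes with q below 0.05 in some comparison, 1 bar per pooled value and no error bar because libraries are pooled, with a star where q against WT was below 0.05. Pcdh1 and Cdh24 are lower in both mutant genotypes, Cdh4 and Pcdh19 are starred in Het alone, and Cdh22 is lowest in Het and highest in KO at 5.62 RPKM.

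The other type II cadherins did not pass the test. Cdh10 came nearest, at 16.8 RPKM in WT, 15.6 in Het and 13.3 in KO (q 0.0681 for KO against WT in the authors' deposited table). Cdh9, which takes part in synapse choice in hippocampus and retina, was highest in Het at 15.9 RPKM, against 13.1 in WT and 13.4 in KO (q 0.198 for Het against WT in the authors' deposited table). Cdh11, expressed in mesenchyme and in neurons, stood at 26.7, 27.0 and 24.2 RPKM in WT, Het and KO. Cdh20, whose seed match lies near the start of its 3′ UTR, was listed at 6.63, 6.26 and 8.05 RPKM in the same order (q 0.184 for KO against WT in the authors' deposited table). Cdh18 had a like order, with 3.71 RPKM in WT, 3.37 in Het and 4.43 in KO. Cdh12, with 2 seed matches, was listed at 3.75, 3.29 and 3.40 RPKM in WT, Het and KO. Cdh6 stood at 2.22, 2.14 and 2.63 RPKM and Cdh7 at 0.959, 1.30 and 1.12, in the same order. For these 2 genes q was 0.956 and 0.439 in Het and 0.504 and 0.618 in KO in the authors' deposited tables.

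Cdh5, the VE-cadherin that seals endothelial junctions, was listed at 5.30 RPKM in WT, 4.60 in Het and 4.22 in KO (q 0.149 for KO against WT in the authors' deposited table). Beside it, of 14 endothelial markers 5 fell and 1 rose in each comparison with WT in the authors' deposited tables, and none was at 0. Their summed level was 183 RPKM in WT, 151 in Het and 161 in KO. Pcdh12, another endothelial member, had higher values in the mutant genotypes, at 0.223 RPKM in WT, 0.433 in Het and 0.542 in KO, but the authors' deposited tables hold no test of it. The mutant values of Cdh5 and Pcdh12 thus lie on opposite sides of WT, and neither gene was called.

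Outside types I and II, Cdh13 (T-cadherin), which is anchored to the membrane by a lipid and has no cytoplasmic tail, was listed at 28.8 RPKM in WT, 31.0 in Het and 34.1 in KO. The values ascend in that order, but neither difference from WT passed the test (q 0.749 in Het and 0.201 in KO in the authors' deposited tables). Cdh23, which with Pcdh15 forms the tip links of inner-ear hair cells, was listed at 0.443, 0.451 and 0.315 RPKM in WT, Het and KO and was not tested. Pcdh15 stood at 3.12, 3.27 and 3.51 RPKM in the same order (q 0.467 for KO against WT in the authors' deposited table).

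Among the delta-1 protocadherins, Pcdh1 was listed at 27.9 RPKM in WT, 20.1 in Het and 20.5 in KO. It fell 1.38-fold in Het (log2 fold -0.45, q 0.00244 in the authors' deposited table). In KO it fell 1.36-fold (log2 fold -0.43, q 0.00446 in the authors' deposited table), so that the mutant genotypes again stood side by side. Pcdh7, named NF-protocadherin for its part in the neural fold, was listed at 11.7 RPKM in WT, 9.93 in Het and 10.2 in KO, with q 0.232 in Het and 0.331 in KO in the authors' deposited tables. Pcdh9 differed little, at 27.9, 28.4 and 27.1 RPKM in WT, Het and KO.

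Delta-2 protocadherins gave 1 call of 5 tested in Het and 0 in KO in the authors' deposited tables, counts too small to set apart from the 9.0% and 14.4% of all genes. For KO, 0 of these 5 had an unadjusted p below 0.05 in the same deposited test. Pcdh19, the X-linked gene mutated in an epilepsy of girls, was listed at 10.1 RPKM in WT, 7.68 in Het and 9.84 in KO. It fell 1.32-fold in Het (log2 fold -0.36, q 0.0114 in the authors' deposited table) and stood near the WT level in KO (q 0.891 in the authors' deposited table). Between KO and Het the log2 fold of Pcdh19 was 0.32 (q 0.181 in the authors' deposited table), so a difference between the mutant genotypes was not shown. Pcdh10 (OL-protocadherin), which recruits the actin-regulating WAVE complex, was listed at 18.9, 21.9 and 20.9 RPKM in WT, Het and KO. Pcdh8, the activity-regulated arcadlin, stood at 13.9, 12.4 and 12.4 RPKM in the same order. Pcdh17, which acts in corticobasal ganglia circuits, was at 9.34, 8.50 and 8.66 RPKM. Pcdh18 was at 1.13, 1.67 and 1.498 RPKM (q 0.106 for Het against WT in the authors' deposited table).

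Pcdh20 was listed at 23.1 RPKM in WT, 21.5 in Het and 16.9 in KO. It fell 1.37-fold in KO (log2 fold -0.43, q 0.00446 in the authors' deposited table), with Het near WT (q 0.745 in the authors' deposited table). For KO against Het the log2 fold was -0.34 (q 0.189 in the authors' deposited table).

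The Het value did not always lie between those of WT and KO. It was the lowest of the 3 genotypes in 11 of 29 members, including Cdh4, Cdh22 and Pcdh19, and the highest in 9. These orders count every gap, also small ones such as that of Cdh24 between Het and KO, which is below the 0.712% by which a genotype's values can differ between tables. Over 15680 genes of at least 0.3 RPKM these orders held for 26.8% and 27.3%. In 4 members the values ascended from WT over Het to KO, among them Cdh8 and Cdh13, and in 5 they descended, among them Cdh10, Cdh19 and Pcdh20. Over the same 15680 genes the values ascended in 23.3% and descended in 22.2%.

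Several cadherin genes share a chromosome in the GENCODE annotation of GRCm38, for example Cdh6, Cdh9, Cdh10, Cdh12 and Cdh18 on chromosome 15. None of those 5 was called, which at the shares of all genes called says nothing about them. The members that were called lie on chromosomes 1 (Cdh19), 2 (Cdh4 and Cdh22), 8 (Cdh8), 14 (Cdh24 and Pcdh20), 18 (Pcdh1) and X (Pcdh19).

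Marker RNA of other cell types differed between the genotypes, and the part of those cell types in the members' changes was not tested. The counts stand beside 9.0% of all genes called in Het against WT, 14.4% in KO against WT and 1.87% in KO against Het. Of 16 striatal projection neuron markers 16 rose in each mutant genotype in the authors' deposited tables, and their summed level went from 105 RPKM in WT to 584 in Het and 596 in KO. Choroid plexus markers fell in 12 of 13 tested in Het and 11 of 13 in KO in the authors' deposited tables, with sums of 2098 RPKM in WT, 299 in Het and 93.7 in KO. Most of these sums is Ttr, listed at 2028, 281 and 83.6 RPKM in the same order. Meningeal fibroblast markers fell in 5 of 13 in Het and 3 of 13 in KO in the authors' deposited tables, with sums of 119, 73.3 and 88.9 RPKM in WT, Het and KO. Dcn alone was listed at 31.9, 5.94 and 28.5 RPKM, so it weighs heavily in the low Het sum. Immature neuron markers rose in 7 of 14 in Het and 8 of 14 in KO in the authors' deposited tables, with sums of 1760, 2201 and 2584 RPKM in WT, Het and KO. Thalamic markers fell in 4 of 9 tested in each mutant genotype in the authors' deposited tables, with sums of 155, 124 and 125 RPKM. Of 11 hippocampal markers 3 rose and 2 fell in Het and 3 fell in KO in the authors' deposited tables, with sums of 179, 153 and 133 RPKM. Myelin markers rose in 2 of 9 in Het and fell in 3 of 9 in KO in the authors' deposited tables, with sums of 1160, 1585 and 917 RPKM. In KO against Het, where Cdh22 rose, 7 of 9 myelin markers fell in the authors' deposited table. The other lists gave calls among oligodendrocyte precursor markers (2 of 9 rose in each mutant genotype), interneuron markers (1 rose and 1 fell of 11 in each) and astrocyte markers (1 rose and 2 fell of 9 in Het, 0 in KO) in the authors' deposited tables. At an unadjusted p below 0.05 the deposited test held 3 astrocyte markers in KO. Counts as small as those of the interneuron markers, or of the astrocyte markers in KO, cannot be set apart from the shares of all genes. No marker of these lists was at 0.

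Genes that work with cadherins are given by list, beside 9.0% of all genes called in either direction in Het and 14.4% in KO. Of 14 catenins and junction plaque genes, 1 rose and 2 fell in Het (21.4%) and 1 fell in KO (7.14%) in the authors' deposited tables. Jup (plakoglobin), a relative of beta-catenin, went from 5.66 to 7.71 RPKM in Het (q 0.0159 in the authors' deposited table). Pkp2 (plakophilin 2), a desmosome protein, fell from 15.9 RPKM in WT to 8.93 in Het and 6.97 in KO (q 0.00135 and 0.000987, the smallest in the authors' deposited tables). Plekha7, which links nectin and cadherin junctions to microtubules, fell from 2.79 to 1.61 RPKM in Het (q 0.00244 in the authors' deposited table). Ctnnb1, beta-catenin itself, was listed at 323, 331 and 293 RPKM in WT, Het and KO with no call.

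Among 9 genes of the WAVE complex, the actin regulator that binds delta-2 protocadherins, 1 fell in Het (11.1%) and 3 fell in KO (33.3%) in the authors' deposited tables. Cyfip2 went from 103 to 79.1 RPKM in KO (q 0.0229 in the authors' deposited table). Its partners Abi1 and Wasf1 went from 62.7 to 49.3 and from 174 to 137 RPKM in KO (q 0.0427 and 0.0443 in the authors' deposited table). Wasf3 went from 24.8 to 19.0 RPKM in Het (q 0.0240 in the authors' deposited table). Over this list the median log2 fold was -0.15 in Het and -0.28 in KO.

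Among 10 Fat, Dachsous, Celsr and calsyntenin genes, large or distant relatives of the cadherins, 0 changed in Het and 2 fell in KO in the authors' deposited tables. At an unadjusted p below 0.05 the deposited test held 2 of them in Het. Clstn2, a calsyntenin of postsynaptic membranes, was listed at 34.0, 37.8 and 27.0 RPKM in WT, Het and KO (q 0.0412 for KO against WT and 0.00879 for KO against Het in the authors' deposited tables). Fat4, a receptor of planar cell polarity, went from 2.98 to 2.29 RPKM in KO (q 0.0352 in the authors' deposited table). Of 5 nectins, the immunoglobulin-type partners of cadherin junctions, Pvrl2 rose in KO from 7.31 to 9.95 RPKM (q 0.0477 in the authors' deposited table). Of 8 proteases that can cleave cadherins, 0 changed in Het or KO, and the deposited test held 0 and 1 of them at an unadjusted p below 0.05.

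Clustered protocadherins, the neighbouring family whose members give single neurons their identity, gave 0 calls among 56 tested in each comparison in the authors' deposited tables. In the same deposited test 0 of the 56 had an unadjusted p below 0.05. Over all genes tested, 2760 of 14159 did in Het, 3721 of 14059 in KO and 1380 of 14062 in KO against Het. The largest log2 fold of this family in Het, that of Pcdhga1, was 0.50 (q 0.937 in the authors' deposited table). The 0 calls thus do not show that levels stayed equal. Transcripts of the alpha and of the gamma cluster share their last exons, so reads cannot be assigned to them with certainty and their values are uncertain. The most abundant, Pcdhgc3, was listed at 50.6, 54.3 and 57.3 RPKM in WT, Het and KO (q 0.944 and 0.819 against WT in the authors' deposited tables).

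**Figure D4:**
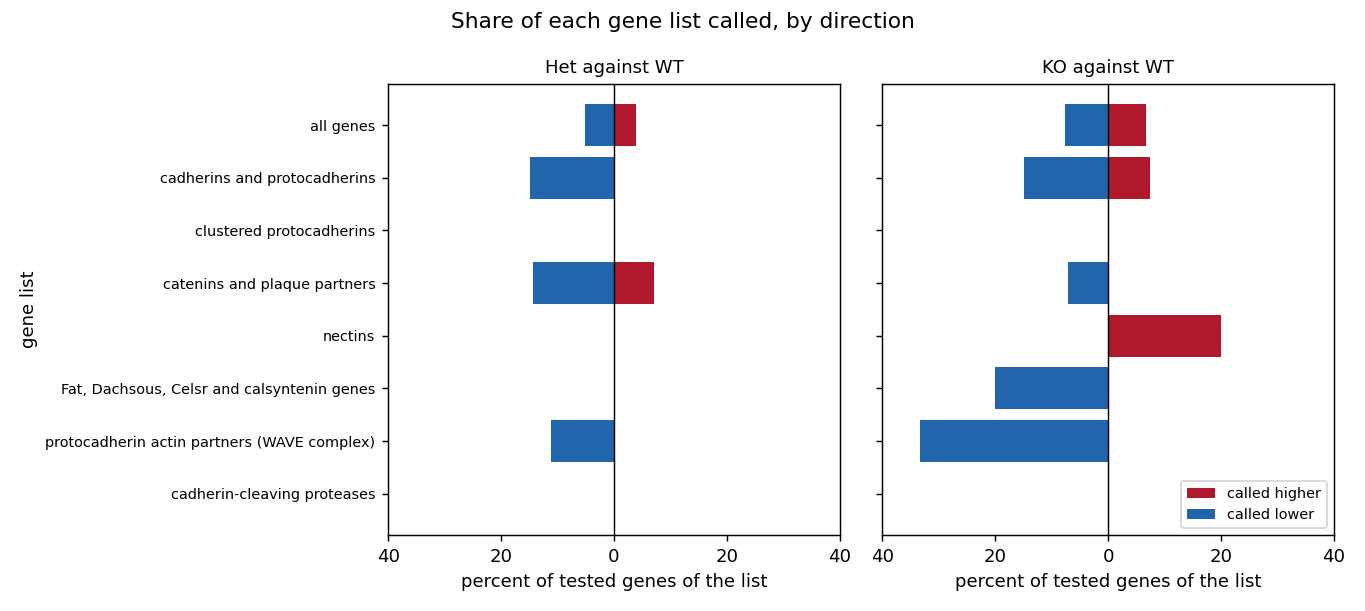
Percent of tested genes of each list that were called higher (red, to the right of 0) or lower (blue, to the left) in Het against WT and KO against WT. Cadherins and protocadherins show 14.8% lower in both panels, next to 5.06% and 7.68% of all genes, and clustered protocadherins have no bar.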

How the data were processed

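The authors deposited 3 pairwise tables with 1 RPKM value per genotype, which pools its libraries, per the file headers. The deposited p-values and q-values come from the authors' own test. Cuffdiff 2.2.1, TopHat2 2.0.13, CASAVA 1.4 and the build mm9 are listed in the submitters' processing notes. Neither the role of each tool nor the annotation is given in the sources used here. Genes with a p of 1 were taken as untested. The q-values matched a Benjamini-Hochberg adjustment over tested genes to within 7.1e-05. Depth per library is unknown.

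No test was run here on gene expression. WT and KO levels come from the table of KO against WT, and Het levels from that of Het against WT. A genotype's member values differed between tables by at most 0.712%. Log2 folds used a pseudocount of 1. Members and gene lists were chosen with earlier results of these data known. All members could be named, and of other lists at most 4 called genes per comparison by smallest q. The 3′ UTRs were those of GENCODE M21 (GRCm38), matched on gene symbol. The calling of direction and the Benjamini-Hochberg step were tested on simulated data with planted shifts. The counts by list, genotype order and seed match were not tested in that way. Alternatives were pseudocounts of 0.1 and 0.01, other minimum levels, a q of 0.01, a minimum log2 fold of 0.5, adjustment over 3 tables, recentred folds and the shortest 3′ UTR. Software was matplotlib 3.10.9, scipy 1.17.1, pandas 2.3.3 and numpy 2.4.6 under Python 3.11.15.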

Additional observations from a re-analysis of the deposited data

How the results depend on the processing

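Of 68 recomputed values, 62 stayed within 1.5 times a count, within 0.1 of a median log2 fold or on their side of 0 for a called gene, and 0 reversed a called gene. Called genes were recomputed only with another pseudocount, which cannot change a sign, and with recentring. Recentring moved the smallest called fold, that of Pcdh19 in Het, only from -0.357 to -0.361. Member counts with no minimum level could not change either, because no member below the limit was tested. These values were bound to stay and do not show that the results are stable. Among the 62, the median of KO against Het changed sign, from 0.004 to -0.007 with no minimum level. With a q threshold of 0.01, members that fell in Het numbered 2 in place of 4, and members that rose in KO 0 in place of 2. With adjustment over the 3 tables together, 1 member, Cdh8, rose in KO. With a minimum absolute log2 fold of 0.5, 0 members fell in Het, 0 rose in KO and 1 fell in KO. That limit was set on folds with a pseudocount of 1. At a pseudocount of 0.1 the log2 fold of Cdh4 in Het was -0.56, and that of Cdh24 was -0.54 in Het and in KO. Those of Pcdh1, Pcdh19, Pcdh20, Cdh8 and Cdh22 called against WT remained below 0.5 in size. The q of 0.01 and the minimum log2 fold are stricter limits on the same values. Joint adjustment changes the set of p-values behind each q, and it raised the q of every member called against WT. Median log2 folds over members ranged from -0.08 to 0.01 over all settings and comparisons. With the shortest annotated 3′ UTR, 5 members held a 7mer-m8 or 8mer match, with Pcdh10 in place of Cdh7. Over 13905 genes of at least 0.3 RPKM such a match stood in 812 with the shortest 3′ UTR and in 1471 with the longest. No paired analysis was possible because the tables hold 1 pooled value per genotype, and leaving out a library was not possible for the same reason. Depth is unknown, so no floor can be set for the low members Cdh3, Cdh19, Cdh23, Cdh26 and Pcdh12.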

Other observations

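Related genes whose names fall outside the numbered pattern include Pcdh11x and the cadherin-related genes Cdhr1, Cdhr2, Cdhr3 and Cdhr5. They were chosen for description after their values were seen. Pcdh11x, an X-linked delta-1 protocadherin, was listed at 2.90 RPKM in WT, 4.07 in Het and 3.95 in KO. It rose 1.41-fold in Het and 1.36-fold in KO (q 0.0114 and 0.0165 in the authors' deposited tables). Pcdh1, of the same delta-1 group, fell in both genotypes.

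Cdhr1, the photoreceptor cadherin that is also found in the olfactory bulb, rose in Het from 6.39 to 8.62 RPKM (q 0.0235 in the authors' deposited table). In KO it stood at 5.72 RPKM, and it was 1.51-fold lower there than in Het (q 0.00517 in the authors' deposited table). Cdhr3, known from ciliated epithelium, was listed at 1.09, 0.589 and 0.574 RPKM in WT, Het and KO, and it fell in KO (q 0.0330 in the authors' deposited table). Cdhr2 was listed at 0.0499 RPKM in WT, and Cdhr5 was listed at 0 in all 3 genotypes.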
